A study of Homo sapiens with 6 samples.

Results

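The genes described here are 31 genes of cholesterol and fatty acid synthesis, listed by name and matched to the rows of a gene expression table. All 31 were found, out of 25442 genes in the table, and all 31 were among the 12493 genes tested, which averaged at least 1 FPKM over the 6 libraries (fragments per kilobase of transcript, scaled to the number of mapped fragments). They comprise 6 enzymes of the mevalonate pathway, 11 enzymes from squalene to cholesterol and 5 genes of regulation and sterol transport. The other 9 are genes of fatty acid synthesis and phosphatidate metabolism. TM7SF2 shares its row with VPS51, a neighbouring gene, so the value belongs to the pair.

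YAPC is a human pancreatic ductal adenocarcinoma (PDA) cell line of the classical subtype. The study compared 3 RNA-seq libraries of YAPC-iGLI2 cells, which carry the doxycycline (Dox)-inducible retroviral vector pRetroX-Tight-Puro with a human GLI2 cDNA that has a Flag tag at its C terminus, with 3 libraries of YAPC-iEV cells, which carry the empty vector. Cells of both groups received Dox in full growth medium for 6 days, so the drug itself is shared by both groups. The question was which genes follow induction of GLI2, a transcription factor of the Hedgehog pathway. Both groups are engineered derivatives of 1 cell line, and the sources used here do not say whether the 3 libraries of a group came from separate cultures, so p-values measure the spread between these libraries only, which may be technical.

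GLI2 was listed at 0.466, 0.412 and 0.344 FPKM in iEV replicates 1, 2 and 3, and at 94.5, 207 and 195 FPKM in iGLI2 replicates 1, 2 and 3, so the label of every library matched its GLI2 level, and iGLI2 replicate 1 had the lowest level of the induced libraries. The epithelial markers EPCAM (396 to 526 FPKM), KRT19 (521 to 682 FPKM) and CDH1 (51.0 to 72.5 FPKM) were present in all 6 libraries. KRT8 and KRT18, which share 1 locus of the table, were listed at exactly 0 in all 6. Whether these zeros mean no expression or a locus without a value cannot be told. Of the markers of other cell types, 3 immune, 3 endothelial and 4 fibroblast genes, the highest were CD68 (at most 3.27 FPKM) and COL1A1 (at most 2.98 FPKM), and PTPRC and DCN were at or near 0. Total FPKM ran from 981341 to 1082684 in iEV and, lower, from 803145 to 889555 in iGLI2. Small RNA genes held 45.4 to 48.4% of the sum in iEV and 38.9 to 40.4% in iGLI2. In bulk RNA, fewer expressing cells and less RNA per cell cannot be told apart.

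Cholesterol and fatty acids are both built from cytosolic acetyl-CoA. Transcription of their enzymes is controlled by the sterol regulatory element binding proteins (SREBPs), which stay in the endoplasmic reticulum, bound to SCAP and held there by INSIG proteins, while sterols are plentiful. When sterols fall, the SREBPs move to the Golgi, are cleaved and enter the nucleus, where the product of SREBF2 acts mainly on sterol genes and that of SREBF1 mainly on fatty acid genes. Proliferating tumour cells draw on both routes for membrane lipid.

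The promoters of 4 genes are shown because these genes carry the patterns described further on. HMGCS1 and SC5D encode enzymes of the route to cholesterol, with large log2 fold changes among the members. INSIG1 encodes a brake on SREBP processing, and SREBF2 encodes an SREBP. Each sequence is the 250 bases before the start of the transcript that begins farthest upstream, on the strand of the gene, from RefSeq on build GRCh38.p14: chr5:43313413-43313662 on the minus strand for HMGCS1, chr11:121292521-121292770 on the plus strand for SC5D, chr7:155297628-155297877 on the plus strand for INSIG1 and chr22:41832855-41833104 on the plus strand for SREBF2. Capitals mark matches, on either strand, to the NF-Y motif CCAAT, the E-box CACGTG and the core CACNCCAC of the sterol regulatory element (SRE), or to its longer form TCACNCCAC, which overlaps the core.
HMGCS1: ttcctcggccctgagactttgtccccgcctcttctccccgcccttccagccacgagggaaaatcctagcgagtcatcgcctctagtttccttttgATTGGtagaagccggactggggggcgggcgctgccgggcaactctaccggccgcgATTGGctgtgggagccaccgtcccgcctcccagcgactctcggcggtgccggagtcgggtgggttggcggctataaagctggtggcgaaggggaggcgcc
SC5D: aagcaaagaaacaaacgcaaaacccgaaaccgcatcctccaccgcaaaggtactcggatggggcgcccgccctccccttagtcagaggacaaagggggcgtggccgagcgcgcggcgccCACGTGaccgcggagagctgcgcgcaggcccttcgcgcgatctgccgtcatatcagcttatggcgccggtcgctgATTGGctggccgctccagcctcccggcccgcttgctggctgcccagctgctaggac
INSIG1: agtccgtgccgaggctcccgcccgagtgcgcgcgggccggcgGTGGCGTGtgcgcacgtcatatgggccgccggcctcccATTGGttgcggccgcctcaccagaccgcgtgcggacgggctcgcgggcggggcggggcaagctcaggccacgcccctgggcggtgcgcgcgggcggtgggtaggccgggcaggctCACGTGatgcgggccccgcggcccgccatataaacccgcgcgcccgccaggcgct
SREBF2: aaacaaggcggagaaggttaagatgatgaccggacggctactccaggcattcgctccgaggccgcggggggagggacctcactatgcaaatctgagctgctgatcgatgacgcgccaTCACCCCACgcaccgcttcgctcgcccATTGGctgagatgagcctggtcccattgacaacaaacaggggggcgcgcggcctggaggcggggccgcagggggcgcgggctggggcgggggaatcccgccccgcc

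The HMGCS1 window held CCAAT matches that began 155 and 100 bases before the start. That of SC5D held an E-box 131 bases and a CCAAT match 56 bases before the start. The INSIG1 window held all 3 kinds of motif, with the SRE core at 208 bases, CCAAT at 170 bases and the E-box at 55 bases. SREBF2 was the 1 member with the longer SRE form, 133 bases before the start, followed by CCAAT at 106 bases. Of the 31 members, 28 had a window in the set of RefSeq promoter windows used here, which held none for FASN, FDFT1 and SQLE. A gene with several transcript starts has several windows, and for the shares that follow a motif was counted in any of them, always within the 250 bases before the start. CCAAT was found in 21 of the 28 (75.0%), against 37.0% of the 27305 genes with a window. The SRE core was found in 6 members, ACACA, IDI1, INSIG1, SC5D, SCD and SREBF2 (21.4%), against 5.89% of genes, and for SC5D it lies in the other of its 2 windows, not in the printed one. For the longer SRE form the shares were 3.57% of members and 1.09% of genes, and for the E-box they were 7.14% and 7.73%. The GLI motif GACCACCCA was in no member window and in 0.253% of genes. These are matches of letters, read without a test, and not sites shown to be bound.

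The members were well expressed, and replicate 1 stood apart from replicates 2 and 3 in both groups. The highest iEV level was that of SCD, the desaturase that makes monounsaturated fatty acids, with 683, 385 and 381 FPKM in replicates 1, 2 and 3. HSD17B7, a sterol reductase, had the lowest, with 10.1, 6.98 and 6.66 FPKM. The reads of HSD17B7, FDPS and IDI1 may be shared with closely related copies, and FADS1 and FADS2 lie in 1 locus of the table, so their levels are less certain.

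**Figure D1:**
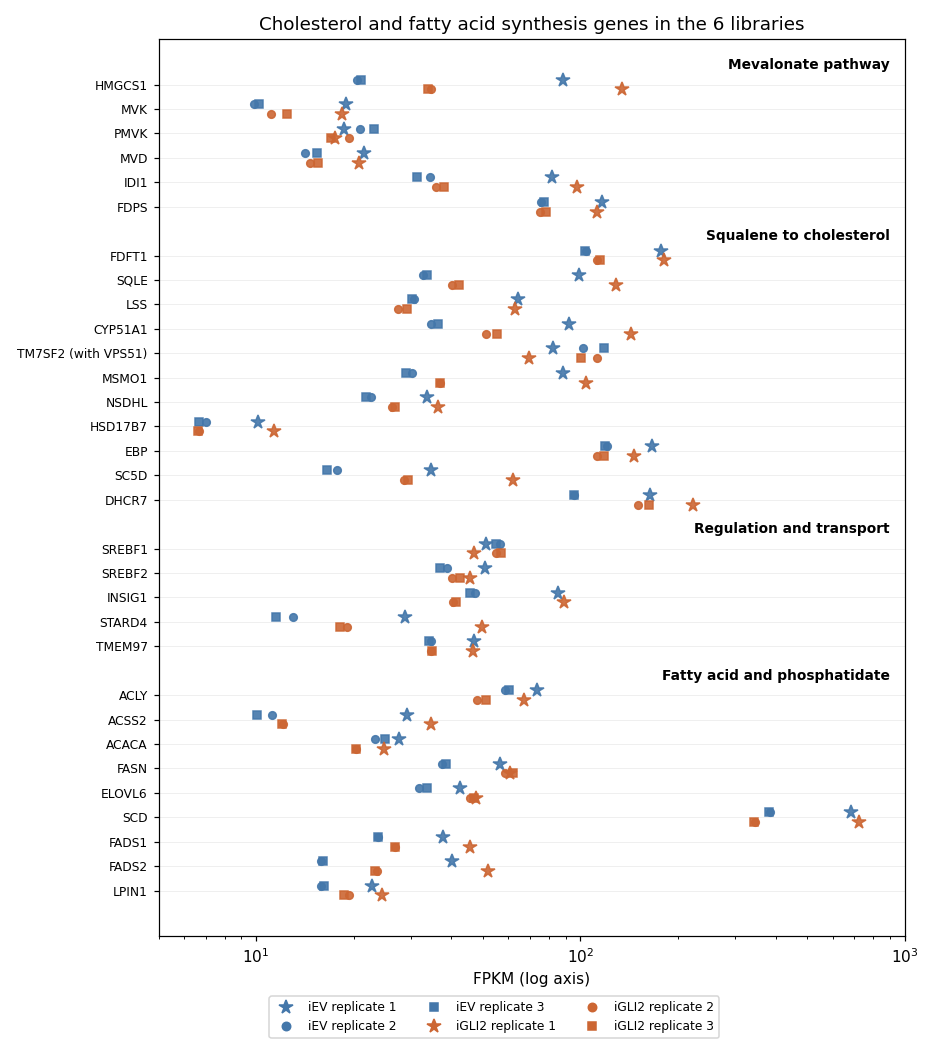
FPKM of the 31 members in each of the 6 libraries, on a log axis, with members grouped by role. iEV is blue and iGLI2 orange, and stars mark the libraries numbered 1, which lie to the right of replicates 2 and 3 of their own group for 27 of the 31 members.

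HMGCS1, which makes the precursor of mevalonate, was listed at 88.5, 20.4 and 21.0 FPKM in iEV replicates 1, 2 and 3 and at 135, 34.7 and 34.0 FPKM in iGLI2 replicates 1, 2 and 3. Replicate 1 was thus 4.27 times the mean of the other replicates in iEV and 3.92 times in iGLI2. For SQLE, which oxidises squalene, the values were 99.3, 32.8 and 33.7 FPKM in iEV and 129, 40.2 and 42.2 FPKM in iGLI2. For MSMO1, a sterol demethylation enzyme, they were 88.2, 30.4 and 29.0 FPKM in iEV and 104, 37.0 and 37.0 FPKM in iGLI2. In these genes the replicate 1 libraries of both groups were above all 4 others.

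Across all 31 members, replicate 1 was the highest of 3 in both groups for 27 (87.1%), against 25.2% of all genes tested. It was the lowest of 3 in both groups for 2, SREBF1 and TM7SF2 with VPS51, against 33.9% of all genes tested. PMVK and FASN make up the rest. The ratio of replicate 1 to the mean of replicates 2 and 3 had a median of 1.58 in iEV, with a range of 0.751 to 4.27, and a median of 1.56 in iGLI2, with a range of 0.648 to 3.92. It was at least 2 in both groups for 10 members, a count that was not made over all genes tested. By role, replicate 1 was highest in both groups for 5 of 6 mevalonate enzymes, 10 of 11 sterol enzymes, 4 of 5 regulation and transport genes and 8 of 9 fatty acid genes, so the pattern was not limited to sterol synthesis.

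The same members stood apart in both groups. Over the 31 members, the replicate 1 difference on the log2(FPKM + 1) scale had a Pearson correlation of 0.953 between iEV and iGLI2. It was 0.537 over the 12154 genes tested that are not small RNA genes, and 0.204 over all genes tested. These are descriptions across genes, which share the same 6 libraries. When those 12154 genes were ranked by the smaller of their replicate 1 differences, 10 of the top 20 were members. Both libraries numbered 1 have the same ending in their sample codes, as have both numbered 2, while those numbered 3 do not. What the endings stand for is not given in the sources used here.

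**Figure D2:**
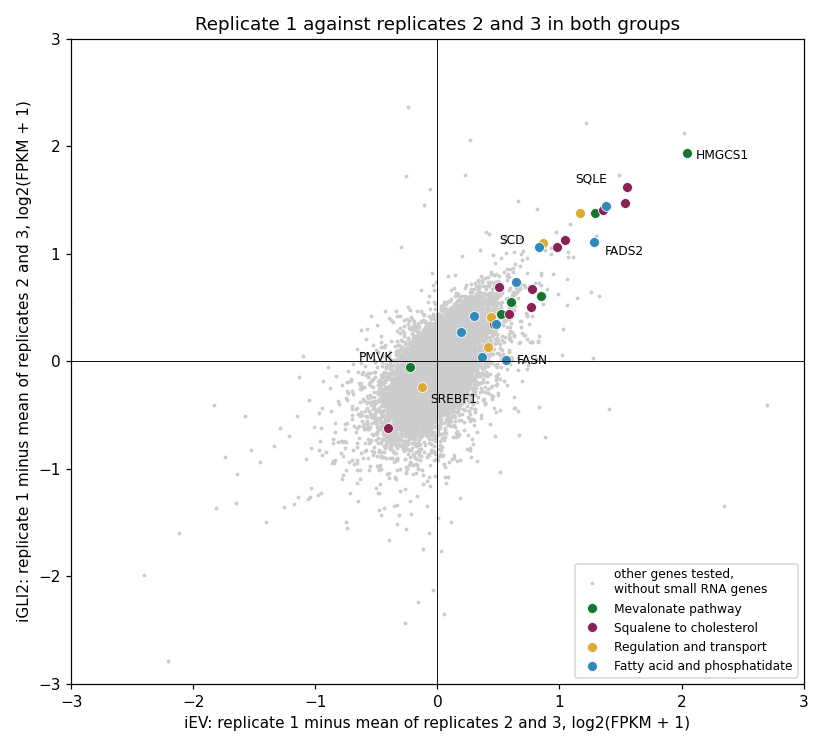
Replicate 1 minus the mean of replicates 2 and 3, in log2(FPKM + 1), for iEV (horizontal axis) and iGLI2 (vertical axis). Coloured points are the 31 members by role and grey points the 12154 genes tested without small RNA genes, of which 18 lie beyond the axes. Most members lie at the upper right, with HMGCS1 farthest out.

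This spread sets what the comparison of 6 libraries with group as the only term can show for the members. Their median residual standard deviation (SD) over the 6 libraries was 0.377 on the log2(FPKM + 1) scale, against 0.128 for all genes tested. Between replicates 2 and 3 alone it was 0.0429 for the members and 0.0541 for all genes. With group as the only term, no member passed an adjusted p of 0.05 in limma over 6 libraries, in either direction. Of all genes, 10.1% were called higher and 11.8% lower in iGLI2. At an unadjusted p under 0.05 there were 2 members, FASN and ELOVL6, against 35.6% of all genes tested, and limma without its intensity trend gave the same counts, 0 and 2. Adjusted p-values of the members ran from 0.0609 to 0.995 in limma. The median log2 fold change of iGLI2 over iEV was 0.13 for the members and -0.015 for all genes tested. Log2 fold changes were above 0 for 21 of 31 members and for 5975 of the 12493 genes tested. Groups did not overlap for 2 members, both higher in iGLI2, where 19.2% of all genes did not overlap and were higher. They did not overlap for 0 members lower in iGLI2, where the share of all genes was 22.8%. With the replicate number added as a block, limma on the same 6 libraries called 10 members higher and 1 lower. That fit called 3928 of the 12493 genes tested, and the sources used here do not say that the numbers pair the samples.

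Without both libraries numbered 1, a comparison of 2 libraries with 2 that was chosen after the data had been seen, limma called 14 of 31 members higher and 4 lower in iGLI2. Over all genes tested the same fit called 21.3% higher and 22.5% lower. Leaving out the libraries that stand apart lowers the spread by construction, and each group is then held to 2 libraries. By role, the called members were 1 of 6 mevalonate enzymes and 7 of 11 sterol enzymes, all higher, 1 higher and 1 lower of 5 regulation and transport genes, and 5 higher and 3 lower of 9 fatty acid genes. The replicate 1 libraries, which that fit did not use, give another pair of values. There, all 14 members called higher were again higher in iGLI2, as were 85.0% of all genes called higher, but 2 of the 4 called lower were again lower, where the share of all genes called lower was 93.8%. This pair has no replicate and no test. HMGCS1, SQLE and MSMO1, given above for the replicate 1 pattern, were chosen after their values were seen. So were members named from here on beyond FASN, ELOVL6, SREBF1, SREBF2 and INSIG1.

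**Figure D3:**
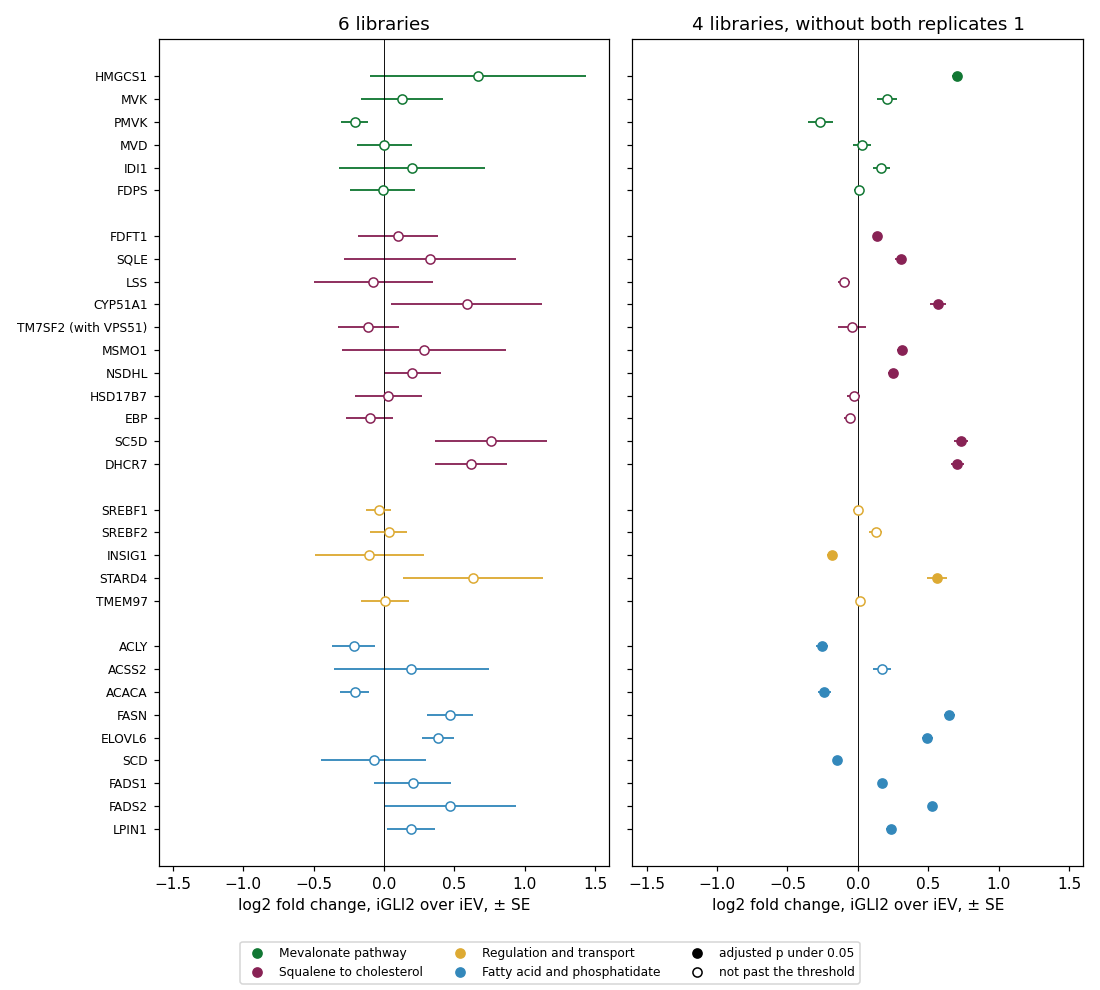
Log2 fold change of iGLI2 over iEV with its standard error for each member, from all 6 libraries (left) and without both libraries numbered 1 (right), on the log2(FPKM + 1) scale. Filled points passed an adjusted p of 0.05 in limma with group as the only term. This holds for 0 members on the left and 18 on the right.

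In the mevalonate pathway, HMGCS1 was the 1 gene called without the replicate 1 libraries. HMGCS1 (hg19 chromosome 5, 43287572 to 43313614) had a log2 fold change of 0.67 (SE 0.77, limma adjusted p = 0.579) over 6 libraries and 0.70 (SE 0.034, limma adjusted p = 0.0015) without replicates 1. iGLI2 over iEV was 1.52 in replicate 1 and 1.66 in the means of replicates 2 and 3, so the direction was the same in each. With a single library left out, the log2 fold change of HMGCS1 was 0.02 without iGLI2 replicate 1 and 1.35 without iEV replicate 1. When small RNA genes were left out as well as both replicates 1, IDI1, an isomerase, and MVK, a kinase, were also called higher, at 0.22 and 0.26 on the log2 scale (limma adjusted p = 0.00982 and 0.0118). The downstream enzymes MVD and FDPS hardly differed in value, with log2 fold changes of 0.002 and -0.010 over 6 libraries, and that of FDPS changed sign with the scaling of the libraries. PMVK had 18.7, 21.0 and 23.1 FPKM in iEV and 17.5, 19.3 and 17.0 FPKM in iGLI2, with overlapping groups and no call in either fit.

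Of the enzymes from squalene to cholesterol, SC5D and DHCR7, which act in the last steps, had the largest log2 fold changes in the fit without replicates 1. SC5D (hg19 chromosome 11, 121163388 to 121184119), the sterol desaturase, was listed at 34.7, 17.8 and 16.5 FPKM in iEV and at 61.9, 28.7 and 29.4 FPKM in iGLI2. Its log2 fold change was 0.76 (SE 0.40, limma adjusted p = 0.233) over 6 libraries and 0.73 (SE 0.049, limma adjusted p = 0.00263) without replicates 1. It was 0.40 without iGLI2 replicate 1 alone and 1.08 without iEV replicate 1 alone. DHCR7 (hg19 chromosome 11, 71145457 to 71159477), the reductase that yields cholesterol, was listed at 164, 95.8 and 95.5 FPKM in iEV and at 223, 151 and 163 FPKM in iGLI2. iEV replicate 1 lay among the iGLI2 libraries, so its groups overlapped. Its log2 fold change was 0.62 (SE 0.26, limma adjusted p = 0.144) over 6 libraries and 0.70 (SE 0.047, limma adjusted p = 0.00249) without replicates 1.

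CYP51A1, the sterol demethylase, was listed at 92.4, 34.6 and 36.4 FPKM in iEV and at 143, 51.1 and 55.2 FPKM in iGLI2. iGLI2 over iEV was 1.55 in replicate 1 and 1.50 in the means of replicates 2 and 3. SQLE and MSMO1, given above, had smaller ratios, 1.29 and 1.24 for SQLE and 1.18 and 1.25 for MSMO1. FDFT1, which makes squalene, and NSDHL, a sterol decarboxylase, were also called higher without replicates 1, with log2 fold changes of 0.13 and 0.25. LSS, which closes the sterol ring, EBP, an isomerase, HSD17B7 and the row of TM7SF2 with VPS51 were called in neither fit, with log2 fold changes between -0.11 and 0.031 over 6 libraries. The enzymes of this branch thus did not have a common value. LSS, the cyclase between SQLE and CYP51A1, was listed at 64.0, 30.6 and 30.3 FPKM in iEV and at 62.9, 27.5 and 29.2 FPKM in iGLI2.

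**Figure D4:**
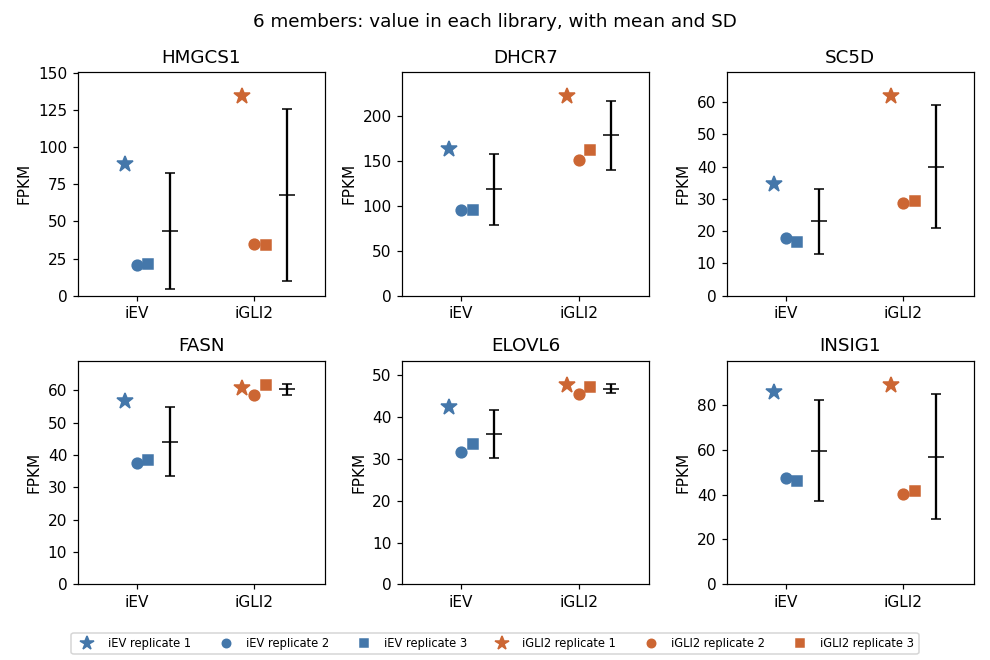
FPKM in each library for HMGCS1, DHCR7, SC5D, FASN, ELOVL6 and INSIG1, with the mean and SD (n = 3) of each group beside the points. FASN and ELOVL6 are the members whose groups do not overlap, and in the other 4 panels a star, replicate 1, extends the range of its group.

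SREBF1 and SREBF2, the SREBP genes, were not called over 6 libraries or without replicates 1. SREBF1 was listed at 51.1, 56.6 and 54.9 FPKM in iEV and at 47.0, 54.8 and 56.8 FPKM in iGLI2, and SREBF2 at 50.8, 38.8 and 37.0 FPKM in iEV and at 45.6, 40.3 and 42.5 FPKM in iGLI2. The groups overlapped for both. SREBF1 had a log2 fold change of -0.04 (SE 0.090, limma adjusted p = 0.795), with a sign that changed with the scaling of the libraries, and SREBF2 one of 0.03 (SE 0.13, limma adjusted p = 0.883). Without replicates 1 SREBF2 was at 0.13 (SE 0.045, limma adjusted p = 0.101), and it was called higher, at 0.18 (limma adjusted p = 0.0133), when small RNA genes were also left out. In replicate 1, SREBF2 was the highest of its group and SREBF1 the lowest, in iEV and iGLI2 alike.

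INSIG1 (hg19 chromosome 7, 155089486 to 155101945), itself a gene that SREBPs induce, was lower in iGLI2 in replicates 2 and 3 but not in replicate 1. Its values were 85.5, 47.3 and 45.8 FPKM in iEV and 88.9, 40.3 and 41.4 FPKM in iGLI2. The log2 fold change was -0.10 (SE 0.39, limma adjusted p = 0.874) over 6 libraries and -0.18 (SE 0.034, limma adjusted p = 0.0215) without replicates 1. iGLI2 over iEV was 0.877 in the means of replicates 2 and 3 and 1.04 in replicate 1, so the direction was not shared. STARD4, a cytosolic sterol carrier, was listed at 28.7, 13.0 and 11.6 FPKM in iEV and at 49.9, 19.0 and 18.1 FPKM in iGLI2. It was called higher without replicates 1, with a log2 fold change of 0.56 (SE 0.070, limma adjusted p = 0.00909). TMEM97, a membrane protein of sterol transport, was listed at 47.0, 34.7 and 34.0 FPKM in iEV and at 46.5, 34.7 and 34.9 FPKM in iGLI2, close values in every replicate.

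FASN and ELOVL6, which build and lengthen saturated fatty acids, were the members whose groups did not overlap. FASN (hg19 chromosome 17, 80036214 to 80056106) was listed at 56.6, 37.5 and 38.4 FPKM in iEV and at 60.8, 58.4 and 61.8 FPKM in iGLI2. The iGLI2 libraries lay close together, and iEV replicate 1 lay just under them. Its log2 fold change was 0.47 (SE 0.16, limma adjusted p = 0.0956) over 6 libraries and 0.65 (SE 0.041, limma adjusted p = 0.00232) without replicates 1. ELOVL6 (hg19 chromosome 4, 110970229 to 111119820) was listed at 42.4, 31.8 and 33.6 FPKM in iEV and at 47.8, 45.6 and 47.1 FPKM in iGLI2. Its log2 fold change was 0.38 (SE 0.11, limma adjusted p = 0.0609) over 6 libraries and 0.49 (SE 0.042, limma adjusted p = 0.00428) without replicates 1. With small RNA genes left out and the libraries rescaled, ELOVL6 passed over 6 libraries, at 0.46 on the log2 scale (limma adjusted p = 0.0395). Replicate 1 was 1.49 times the mean of the other replicates for FASN in iEV and 1.01 times in iGLI2, and for ELOVL6 the ratios were 1.30 and 1.03. These genes thus had a replicate 1 excess in iEV and little in iGLI2, which was not tested as a difference.

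ACLY and ACACA, which supply FASN, had lower values in iGLI2, with groups that overlapped. ACLY, which makes cytosolic acetyl-CoA from citrate, was listed at 73.4, 58.7 and 60.2 FPKM in iEV and at 67.0, 48.0 and 51.3 FPKM in iGLI2. ACACA, the carboxylase that makes malonyl-CoA, was listed at 27.7, 23.3 and 25.0 FPKM in iEV and at 24.8, 20.4 and 20.3 FPKM in iGLI2. Both were lower in replicate 1 as well, with iGLI2 over iEV at 0.912 for ACLY and 0.898 for ACACA. Without replicates 1 the log2 fold changes were -0.26 for ACLY (limma adjusted p = 0.0195) and -0.24 for ACACA (limma adjusted p = 0.0247). ACSS2, which makes acetyl-CoA from acetate, was listed at 29.1, 11.2 and 10.1 FPKM in iEV and at 34.7, 12.14 and 11.99 FPKM in iGLI2, with no call in either fit, though it was called higher, at 0.22 (limma adjusted p = 0.0149), when small RNA genes were left out as well as both replicates 1.

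The desaturases did not share a direction. SCD had a log2 fold change of -0.07 (SE 0.37, limma adjusted p = 0.907) over 6 libraries. In iGLI2 it was listed at 722, 345 and 344 FPKM, above the iEV value in replicate 1 and below both iEV values in replicates 2 and 3. Without replicates 1 SCD was called lower, at -0.15 (SE 0.028, limma adjusted p = 0.0228), a call that was lost when small RNA genes were also left out (limma adjusted p = 0.0793). FADS2, a desaturase of polyunsaturated fatty acids, was listed at 40.3, 15.8 and 16.0 FPKM in iEV and at 51.8, 23.6 and 23.2 FPKM in iGLI2. FADS2 had a log2 fold change of 0.47 (SE 0.47, limma adjusted p = 0.515) over 6 libraries and 0.53 (SE 0.033, limma adjusted p = 0.00223) without replicates 1. It was 0.10 without iGLI2 replicate 1 alone and 0.90 without iEV replicate 1 alone. FADS1, which acts after FADS2, and LPIN1, the phosphatase that makes diacylglycerol, were called higher in that fit with log2 fold changes of 0.17 and 0.23.

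Other genes of lipid metabolism were counted in 6 further lists, in the comparison of 6 libraries where 10.1% of all genes were called higher and 11.8% lower. Of 16 other enzymes of sterols and isoprenoids, 0 were called higher and 3 lower. These were DHDDS, which makes dolichol (log2 fold change -0.24, limma adjusted p = 0.0433), and PDSS1 and PDSS2, the subunits of the enzyme for the coenzyme Q side chain (-0.47 and -0.23, limma adjusted p = 0.0383 and 0.0468). All 3 branch from the mevalonate pathway rather than make cholesterol. Of 10 genes of SREBP processing, such as SCAP, 0 were called in limma, with 4 at an unadjusted p under 0.05, where the share of all genes was 35.6%. Of 12 genes of sterol handling, NCEH1, a cholesterol ester hydrolase, was called higher (log2 fold change 0.33, limma adjusted p = 0.0144) and OSBP, a sterol carrier, lower (-0.33, limma adjusted p = 0.0143).

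Of 8 tested genes of sterol efflux and the liver X receptors, SMPDL3A, a phosphodiesterase that these receptors induce, was called higher. It was listed at 5.58, 5.07 and 4.29 FPKM in iEV and at 23.3, 23.2 and 23.2 FPKM in iGLI2, with a log2 fold change of 2.02 (SE 0.089, limma adjusted p = 0.000162). Of 28 tested genes of fatty acyl and glycerolipid metabolism, 3 were called higher and 2 lower. SCD5, the second human stearoyl-CoA desaturase, was listed at 3.36, 3.67 and 4.48 FPKM in iEV and at 17.2, 17.4 and 18.4 FPKM in iGLI2, with a log2 fold change of 1.96 (SE 0.096, limma adjusted p = 0.000221). LPIN2, a relative of LPIN1, and IDH1, a cytosolic source of NADPH, were higher by 0.52 and 0.36 on the log2 scale (limma adjusted p = 0.0449 and 0.0270). ACSL5, an acyl-CoA synthetase, and AGPAT2, which makes phosphatidate, were lower, with log2 fold changes of -0.57 and -0.47 (limma adjusted p = 0.00289 and 0.00806). The desaturase SCD5 thus passed the test over 6 libraries where SCD did not, at far lower FPKM.

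Of 20 genes of fatty acid oxidation, 0 were called higher and 7 lower. CPT1A, which admits fatty acids to mitochondria, was listed at 95.9, 89.0 and 88.7 FPKM in iEV and at 58.9, 54.1 and 57.5 FPKM in iGLI2, with a log2 fold change of -0.67 (SE 0.065, limma adjusted p = 0.00157). HADHA, a subunit of the trifunctional enzyme, and ETFA, an electron carrier, had log2 fold changes of -0.48 and -0.39 (limma adjusted p = 0.00323 and 0.00633). In this list replicate 1 was the highest of 3 in both groups for 35.0% of the genes, against 25.2% of all genes and 87.1% of the members. The median log2 fold change was -0.27 for the oxidation list and 0.13 for the 31 members.

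**Figure D5:**
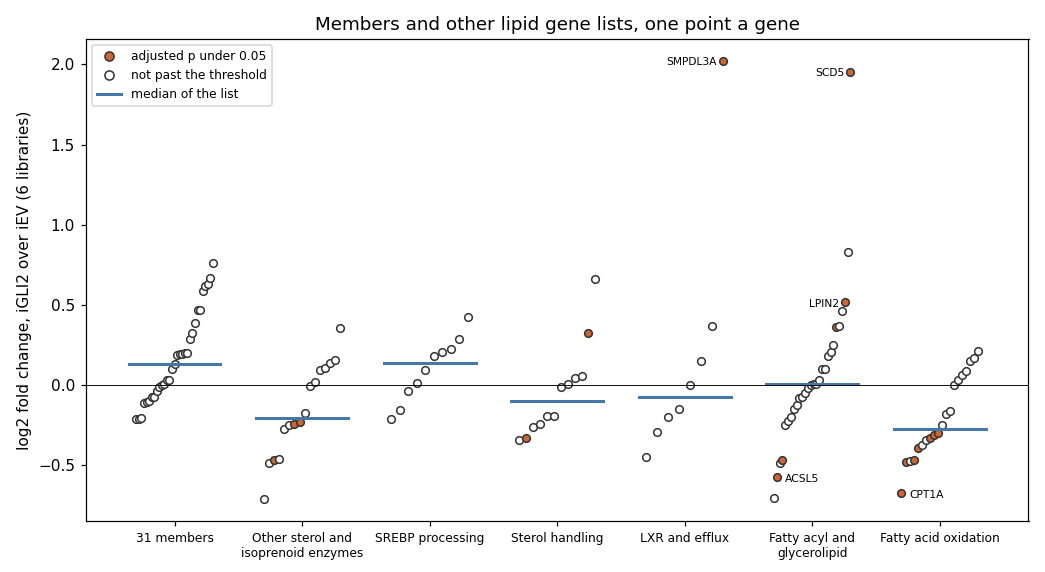
Log2 fold change of iGLI2 over iEV from 6 libraries, on the log2(FPKM + 1) scale, with 1 point for each gene tested of the 31 members and of 6 further lists. Filled points passed an adjusted p of 0.05 in limma, and blue lines are list medians. No member point is filled, and in fatty acid oxidation all 7 filled points lie below 0.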

How the data were processed

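The 6 libraries were made from total RNA with the Illumina TruSeq RNA Sample Prep Kit. Per the study's methods, Trimmomatic cleaned the reads, TopHat2 placed them on hg19 and cuffdiff followed. The submitters' processing notes give Cuffdiff 2.1.1. The authors deposited 1 table of FPKM values per gene and library. It does not state its unit, which was read from its values and from how it was made. It holds no counts, so depth and counting error are unknown, and 0 of its library columns lacked a sample.

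Of 27024 entries, 1252 off the primary chromosomes and 330 repeats of a name were dropped, the entry with the highest mean being kept, which left 25442 genes. FPKM were used as deposited. The 12493 genes averaging 1 FPKM or more were put on the log2(FPKM + 1) scale and compared with limma 3.58.1 (intensity trend, two-sided, Benjamini-Hochberg over all genes tested) in R 4.3.3, with group as the only term. On this scale a fold change understates that of low genes. The procedure was tested on simulated data. Coordinates are hg19 loci of the table, which can take in a neighbour. Promoter windows are from RefSeq. Tables and plots were made with Python 3.11.15, pandas 2.3.3 and matplotlib 3.10.9.

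The members and lists were chosen with earlier results of these data known. SREBF1, SREBF2, INSIG1, members called and members whose groups did not overlap were to be given by value, other members by range and count, and, from each further list, up to 3 called genes in each direction with the smallest p. Alternatives covered scaling, pseudocount, filter, trend, replicate block, threshold and each library left out. The fits without both replicates numbered 1 were added after seeing the data.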

Additional observations from a re-analysis of the deposited data

How the results depend on the processing

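The members' counts over 6 libraries, 0 higher and 0 lower, were the same in limma with upper quartile scaling, quantile normalization, a pseudocount of 0.1 FPKM, no filter, a mean of at least 5 FPKM, no intensity trend, an adjusted p under 0.01 and a block by the digit of the sample code. With small RNA genes left out and the libraries rescaled, 1 member (ELOVL6) was higher and 0 lower, and the median over all genes rose from -0.015 to 0.055. Of the 12493 genes tested, 2742 were called, against 1095 at an adjusted p under 0.01 and 5467 without both replicates numbered 1. Calls over all genes in this section are of both directions together. Rescaling that last fit too gave 6419 calls, with 18 members higher and 3 lower, against 14 and 4 without rescaling (MVK, IDI1, SREBF2 and ACSS2 gained, SCD lost). Leaving out each library in turn gave 1223 to 3753 calls, with over 1.5 times fewer than 2742 without iEV replicate 2 (1223), iEV replicate 3 (1303), iGLI2 replicate 2 (1357) or iGLI2 replicate 3 (1510). It gave 0 to 3 members higher (DHCR7, FASN and ELOVL6 without iEV replicate 1), 0 to 1 lower (ACACA without iGLI2 replicate 1) and a median member log2 fold change of -0.123 to 0.357. The lowest median was without iGLI2 replicate 1 and the highest without iEV replicate 1.

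With the replicate number as a block, limma called 3928 of the 12493 genes tested. It called 11 of the 31 members, 10 higher and 1 lower. The numbers were not taken as pairing the samples. Over all genes tested, small RNA genes included, the deviations of same-numbered libraries had correlations of 0.204, 0.0919 and 0.0276, not all over 0.1. There, iGLI2 replicate 3 correlated best with iEV replicate 2 (0.117). For replicate 1 the correlation was 0.537 without small RNA genes and 0.953 over the members. Whether the libraries are paired is thus not settled.

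Some members not called over 6 libraries changed sign, and the cause was not tested. FDPS was at 0.004 with upper quartile scaling, 0.068 with small RNA genes left out, 0.003 with quantile normalization, 0.006 without both replicates 1 and 0.060 with that and small RNA genes left out. SREBF1 was at 0.039 with small RNA genes left out, 0.001 without both replicates 1 and 0.054 with both. SCD was at 0.004 with small RNA genes left out and 0.068 with quantile normalization, and LSS was at 0.000 with small RNA genes left out. HSD17B7 was at -0.031 without both replicates 1, and TM7SF2 at 0.012 with small RNA genes also left out. Over the fits that leave out 1 library, the lowest and highest log2 fold changes were -0.288 and 0.655 for ACSS2, -0.215 and 0.056 for EBP, -0.044 and 0.417 for FADS1, -0.123 and 0.357 for FDFT1, -0.194 and 0.190 for FDPS, -0.200 and 0.200 for HSD17B7, -0.265 and 0.627 for IDI1, -0.472 and 0.183 for INSIG1, -0.451 and 0.273 for LSS, -0.205 and 0.799 for MSMO1, -0.144 and 0.174 for MVD, -0.074 and 0.411 for MVK, -0.429 and 0.204 for SCD, -0.213 and 0.843 for SQLE, -0.091 and 0.042 for SREBF1, -0.054 and 0.171 for SREBF2, -0.255 and 0.094 for TM7SF2 and -0.129 and 0.153 for TMEM97. Without a change of sign, leaving out iGLI2 replicate 1 and iEV replicate 1 moved HMGCS1 to 0.021 and 1.348, CYP51A1 to 0.116 and 1.038, SC5D to 0.403 and 1.085, DHCR7 to 0.450 and 0.873, STARD4 to 0.173 and 1.021, FADS2 to 0.10 and 0.90, NSDHL to 0.056 and 0.396, LPIN1 to 0.074 and 0.350 and ACLY to -0.356 and -0.114.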

Other observations

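Some genes that act on sterol synthesis from outside the member list also differed between replicate 1 and the other replicates, in both groups. Of the 10 genes of SREBP processing, replicate 1 was the highest of 3 in both groups for 4 and the lowest for 3. The shares of all genes tested were 25.2% and 33.9%. Those named here were picked from the 10 after their values were seen. INSIG2, a relative of INSIG1, was listed at 15.4, 11.3 and 10.2 FPKM in iEV replicates 1, 2 and 3 and at 21.3, 12.1 and 11.4 FPKM in iGLI2. SPRING1, which is needed for SREBP cleavage, was listed at 32.0, 22.3 and 22.5 FPKM in iEV and at 33.9, 21.8 and 22.2 FPKM in iGLI2. Replicate 1 was the highest of its group for both genes. SCAP, the SREBP escort, was lowest in replicate 1, with 17.1, 19.1 and 19.1 FPKM in iEV and 12.6, 17.3 and 17.9 FPKM in iGLI2.

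ABCA1 and ABCG1, genes of sterol efflux, were lowest in replicate 1 of both groups. ABCA1, the exporter of cholesterol to apolipoproteins, was listed at 6.99, 14.2 and 14.0 FPKM in iEV and at 9.62, 18.5 and 17.8 FPKM in iGLI2. ABCG1, its partner in export, was listed at 32.9, 52.6 and 51.4 FPKM in iEV and at 29.2, 44.3 and 45.4 FPKM in iGLI2. Replicate 1 was the lowest of 3 in both groups for 5 of the 8 efflux and liver X receptor genes tested, against 33.9% of all genes. These genes were chosen after their values were seen, and the 2 replicate 1 libraries give no test of the pattern.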
